A study of Mus musculus with 18 samples.

Results

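The genes described here are 10 cytokine genes of the IL-12 and IL-1 families together with Il6 and Il10. They were chosen by name, as the rows of the count table whose Ensembl identifiers map to Il12a, Il12b, Il23a, Ebi3, Il27, Il6, Il10, Il1b, Il18 and Il1rn. These are 10 of the 54232 genes in the table, and all 10 passed the filter on low counts that left 17074 genes for testing. Il12a passed it with no count in LP CD103+ DCs, and Il23a with 2 counts there.

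RNA-seq was performed on 18 libraries of dendritic cells (DCs) sorted from C57BL/6J mice, and every library carries the genotype label CD11a KO, so no wild-type group was available for comparison here. Itgal encodes CD11a, an integrin subunit found on leukocytes. There were 3 subsets, CD11b+ DCs, CD103+ DCs and DCs positive for both markers (double-positive, DP). Each was taken from the lamina propria (LP) of the small intestine and from the intestinal lymph node (LN). Each of the 6 groups held 3 libraries. The labels give no age, sex or treatment for these animals, and do not say whether the 3 libraries of a group came from separate mice. The p-values below therefore measure the spread between libraries, which may be technical in part. Levels are CPM, read counts relative to library sizes scaled by the trimmed mean of M values, and fold changes are on the log2 scale with their standard error (SE).

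Total counts per library lay between 23574292 and 46901985. Itgal was detected at 6.45 to 26.6 CPM in every library, so a loss of its transcript was not visible and no direction is drawn from the genotype. All 9 LP libraries carried the Y-linked transcript Ddx3y at over 10 CPM and Xist at 0.286 CPM or less, whereas all 9 LN libraries carried Xist at 15.4 CPM or more. The tissue of origin and the sex of the animals therefore cannot be told apart in any LN against LP comparison. Library 3 of the LN CD11b+ group and library 3 of the LN DP group carried both transcripts, and results that change without them are named below. Summed levels of 8 T cell markers were 4.39 to 27.0 CPM in LP libraries and 242 to 536 CPM in LN libraries, with Lck at 104 to 130 CPM in the LN group means. The sort markers followed the labels within each tissue but were lower in the node. Itgam, which encodes CD11b, was at 61.3 and 68.5 CPM in the LP CD11b+ and DP groups and at 20.8 and 5.16 CPM in their LN counterparts. Itgae, which encodes CD103, was at 1340 CPM in LP CD103+ DCs and 35.4 CPM in LN CD103+ DCs. In bulk libraries such as these, fewer cells of a type and less RNA per cell cannot be told apart.

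IL-12 family cytokines are heterodimers that share chains. The p40 chain (Il12b) pairs with p35 (Il12a) to form IL-12 and with p19 (Il23a) to form IL-23, and EBI3 (Ebi3) pairs with p28 (Il27) to form IL-27. DCs are a main source of these cytokines, which steer T cell responses, and IL-12 is classically made by the cDC1 lineage, to which intestinal CD103+ CD11b- DCs belong. IL-1 beta and IL-18 are made as precursors that are cut by caspase-1 in inflammasomes, the IL-1 receptor antagonist (Il1rn) competes with IL-1 for its receptor, IL-6 is a broadly acting inflammatory cytokine, and IL-10 restrains inflammation.

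The promoters of Il12b, Il1b and Il6 are shown because these genes had 3 distinct patterns across the groups. Each sequence is the 250 bases upstream of the annotated start, from RefSeq on the GRCm38.p6 build, written 5′ to 3′ on the strand of the gene. Il12b is at chr11:44399813-44400062 on the plus strand, Il1b at chr2:129371140-129371389 on the minus strand and Il6 at chr5:30012864-30013113 on the plus strand. Capitals mark matches, on either strand, to any of 5 motifs. The motif for NF-kB was GGGANTT. That for C/EBP was TTGCNNAA. AP-1 was searched as TGANTCA. PU.1 was searched as GAGGAA. The TATA box was searched as TATAAA.
Il12b: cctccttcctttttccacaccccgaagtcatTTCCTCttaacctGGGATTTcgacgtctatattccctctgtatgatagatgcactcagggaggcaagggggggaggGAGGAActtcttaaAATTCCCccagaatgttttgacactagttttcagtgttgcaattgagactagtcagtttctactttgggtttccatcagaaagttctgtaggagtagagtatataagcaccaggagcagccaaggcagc
Il1b: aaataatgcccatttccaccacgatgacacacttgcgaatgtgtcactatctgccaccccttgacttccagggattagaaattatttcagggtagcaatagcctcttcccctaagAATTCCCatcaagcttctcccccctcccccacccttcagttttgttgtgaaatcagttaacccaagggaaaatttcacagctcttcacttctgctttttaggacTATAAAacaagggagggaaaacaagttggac
Il6: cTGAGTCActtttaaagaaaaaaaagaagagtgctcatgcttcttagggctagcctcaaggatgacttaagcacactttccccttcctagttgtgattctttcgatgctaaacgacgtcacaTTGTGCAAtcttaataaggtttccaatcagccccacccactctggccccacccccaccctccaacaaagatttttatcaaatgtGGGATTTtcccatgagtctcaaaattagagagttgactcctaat

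The Il12b window held 4 matches, 2 for NF-kB and 2 for PU.1. The Il1b window held 1 match for NF-kB and 1 TATA box, which begins 31 bases before the start. The Il6 window held 1 match each for NF-kB, C/EBP and AP-1. Of 32817 mouse promoter windows of this length, 14.4% hold the NF-kB letters, 23.3% those of PU.1, 12.4% the TATA box, 9.57% those of C/EBP and 6.75% those of AP-1. A match describes the letters and not a bound site. Windows were found for 7 of the 10 genes, and that at the first start of Il12a also held the NF-kB letters.

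**Figure D1:**
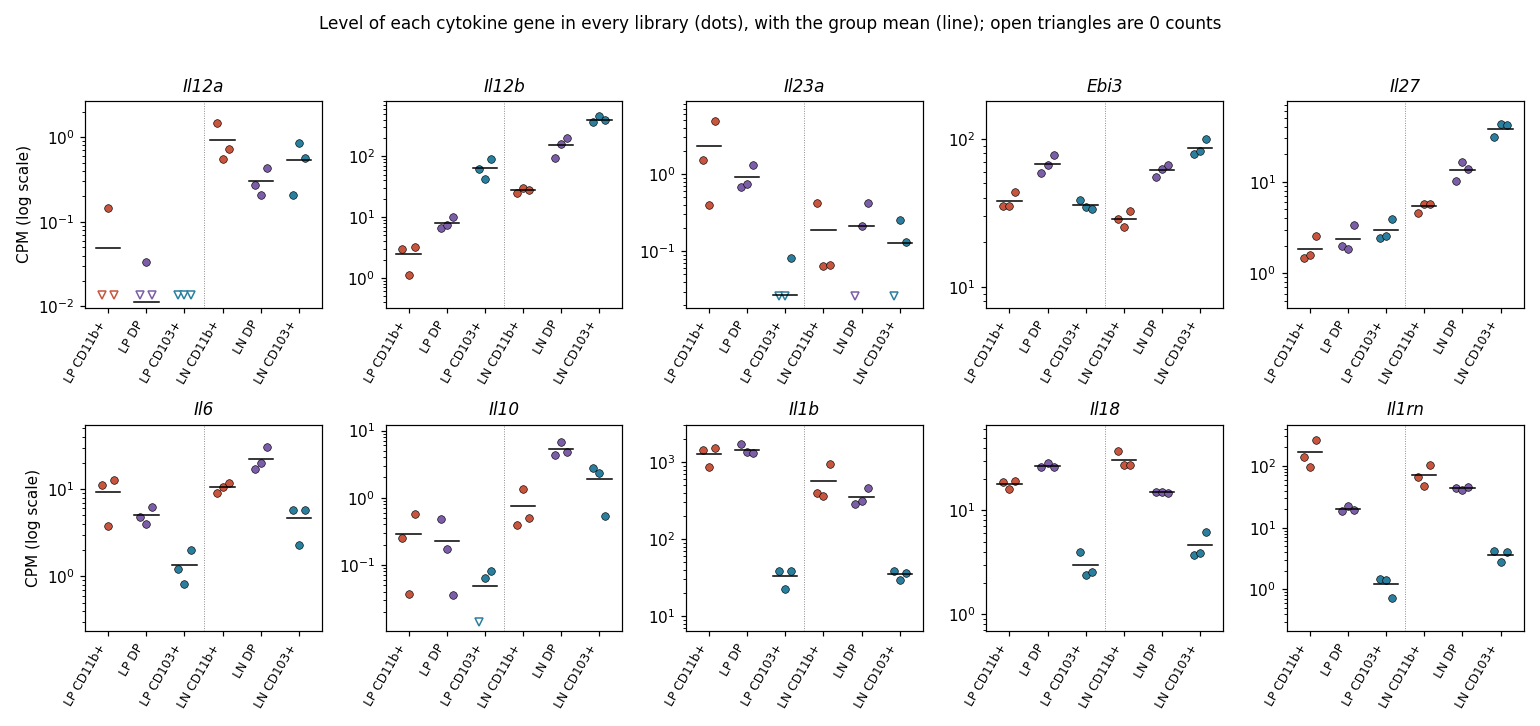
Level of each gene in CPM on a log axis, with 1 dot per library, a line for the group mean and open triangles for libraries with 0 counts. LP is lamina propria, LN is lymph node and DP is double-positive, and colours mark the subsets. Il12b and Il27 peak in LN CD103+ DCs (means of 401 and 38.3 CPM), while Il1b, Il18 and Il1rn are lowest in the CD103+ DCs of either tissue.

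To compare the tissues, LN was set against LP within each subset. A gene was called at an adjusted p under 0.01 and a fold change over 2, by the quasi-likelihood test of edgeR, with p-values adjusted by the Benjamini-Hochberg method. In CD11b+ DCs 5 of the 10 genes were called, against 15.2% of all genes tested, with 3 higher in the LN (background 10.3%) and 2 lower (background 4.93%). In CD103+ DCs 7 were called, all higher in the LN, against 35.0% of all genes (19.8% higher and 15.1% lower). In DP DCs 7 were called, 6 higher and 1 lower, against 32.1% of all genes (18.6% higher and 13.6% lower). The number in DP DCs was 5 whichever of the libraries compared was left out. The genes called higher include Il12a in all 3 subsets and Il10 in CD103+ and DP DCs. Both passed the filter on low counts through the LN groups, so their calls add no weight to these counts. The median log2 fold change over the 10 genes was 0.48, 2.09 and 1.63 in CD11b+, CD103+ and DP DCs, beside 0.03, 0.04 and 0.07 over all genes tested. Il12a, Il12b and Il27 were higher in the LN in all 3 subsets, and Il6 and Il10 in CD103+ and DP DCs. Il1b was lower in the LN in CD11b+ and DP DCs, and Il1rn was lower in CD11b+ DCs but higher in the other 2 subsets. Some of these calls depended on single libraries, as given below. They were those on Il12a in CD11b+ and DP DCs, Il6 in CD103+ DCs, Il1b in CD11b+ DCs and Il1rn in all 3 subsets.

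To compare the subsets, they were set against each other in pairs within a tissue. In the LP, 6 genes were called between CD103+ and CD11b+ DCs (background 15.7%), 2 between DP and CD11b+ DCs (4.81%) and 6 between DP and CD103+ DCs (13.6%). The LP counts that involve CD103+ DCs include Il23a, which passed the filter on low counts through the LP CD11b+ and DP groups. In the LN the counts were 6 between CD103+ and CD11b+ DCs (25.9%), 5 between DP and CD11b+ DCs (16.7%) and 6 between DP and CD103+ DCs (6.53%). Il12b was called in all 6 of these comparisons. Il1b, Il18 and Il1rn were higher in CD11b+ and in DP DCs than in CD103+ DCs of the same tissue in each of the 4 comparisons. A test of whether the tissue difference itself differed between subsets called 5 of the 10 genes, Ebi3, Il27, Il1b, Il18 and Il1rn (background 31.5%). The adjusted p of the others was 0.017 for Il12b, 0.027 for Il6, 0.058 for Il23a, 0.042 for Il10 and 0.39 for Il12a (edgeR).

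**Figure D2:**
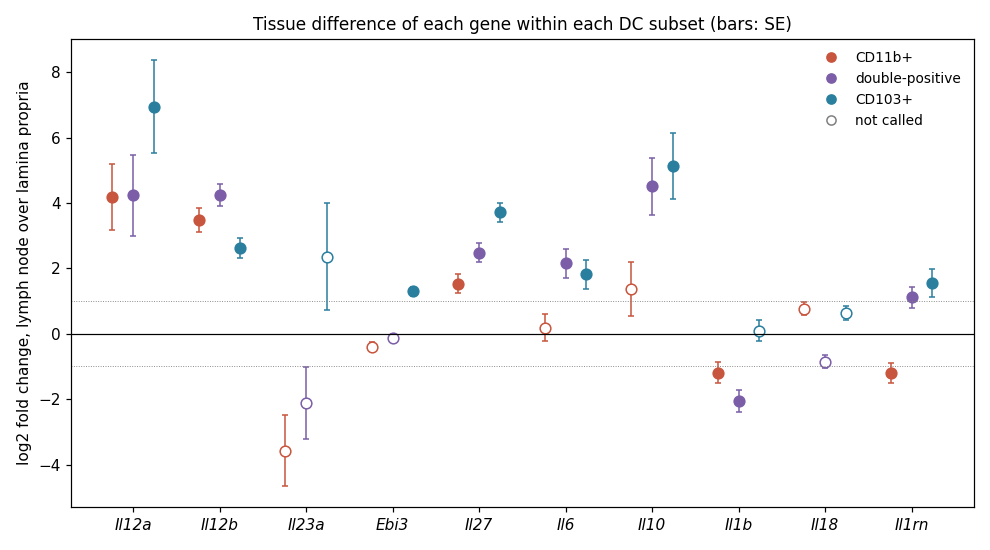
Fitted log2 fold change of LN over LP for each gene (y axis) in CD11b+, DP and CD103+ DCs, with bars of 1 SE and open symbols where the gene was not called. Il12a, Il12b and Il27 lie above 0 in all 3 subsets. The point for Il12a in CD103+ DCs depends on the prior count, because no read was counted in the LP.

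Il12b (chromosome 11, 44400063 to 44414033) encodes the p40 chain shared by IL-12 and IL-23. In the LP its level was 2.98, 1.14 and 3.29 CPM in the CD11b+ libraries, 6.67, 7.46 and 10.0 CPM in the DP libraries, and 62.5, 42.3 and 89.7 CPM in the CD103+ libraries. In the LN it was 25.3, 30.0 and 28.0 CPM, 94.6, 157 and 204 CPM, and 362, 453 and 390 CPM in the same order of subsets. The ranges of the 6 groups did not overlap, and both tissues had the same order, with CD103+ DCs highest and CD11b+ DCs lowest. The rise from LP to LN was 11.1-fold in CD11b+ DCs (log2 fold change 3.48 ± 0.36, adjusted p = 1.2e-06), 18.8-fold in DP DCs (4.23 ± 0.34, adjusted p = 1.4e-08) and 6.21-fold in CD103+ DCs (2.63 ± 0.31, adjusted p = 1.1e-06; edgeR, n = 3 per group). These calls held in all alternatives run. The test of a difference between these 3 rises gave an adjusted p of 0.017 with edgeR, which missed the threshold and passed it without LP CD11b+ library 2 (0.0078), LP CD103+ library 2 (0.0057) or LN DP library 1 (0.0045), with 0.0039 to 0.059 over all alternatives.

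Within the LP, Il12b was 25.9-fold higher in CD103+ than in CD11b+ DCs (log2 fold change 4.70 ± 0.37, adjusted p = 2.9e-08 with edgeR). DP DCs lay between them, 8.02-fold below CD103+ DCs (adjusted p = 1.5e-06 with edgeR) and 3.23-fold above CD11b+ DCs (log2 fold change 1.69 ± 0.37, adjusted p = 0.0048 with edgeR). The smaller step missed the threshold without LP CD11b+ library 1 or 2 or without LP DP library 2 or 3 (adjusted p 0.011 to 0.026). It also missed it with only the libraries compared (0.03 with edgeR), with a range of 5.7e-05 to 0.03 over all alternatives. Within the LN, DP DCs were above CD11b+ DCs by 2.45 ± 0.31 on the log2 scale (adjusted p = 6.6e-06 with edgeR). CD103+ DCs were 14.4-fold above CD11b+ DCs (log2 fold change 3.85 ± 0.32, adjusted p = 3.4e-08 with edgeR) and 2.65-fold above DP DCs (adjusted p = 0.0019 with edgeR). The latter was lost without LN DP library 1 (1.15 lower on the log2 scale in DP DCs, adjusted p = 0.013, with 2.8e-04 to 0.013 over all alternatives).

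The summed level of 6 cDC1 markers was, like Il12b, highest in CD103+ DCs of both tissues. In the LP it was 7730 to 8235 CPM in CD103+ DCs and 257 to 317 CPM in the other groups. In the LN it was lower in CD103+ DCs, at 1989 to 2057 CPM, and higher in the others, at 580 to 642 CPM in CD11b+ and 939 to 1119 CPM in DP DCs. Members of the list differed. In CD103+ DCs Xcr1 was at 1400 CPM in the LP and 97.6 CPM in the LN, whereas Batf3 was at 148 and 156 CPM. In the LN Batf3 was highest in DP DCs (183 CPM), and Tlr3 was lowest in CD103+ DCs (8.65 CPM). The 12 maturation markers summed to 1083 to 2827 CPM in the LP and 4211 to 28600 CPM in the LN, lowest there in CD11b+ DCs. Some ran the other way. The costimulatory ligand Cd86 was at 557 CPM in LP and 148 CPM in LN CD103+ DCs and at 176 and 118 CPM in DP DCs, Cd80 at 36.6 and 17.4 CPM in DP DCs, and Ccl17 at 54.6 and 17.3 CPM in CD11b+ DCs. Il4i1 and Lamp3 were under 1 CPM in every group mean. Ccr7, the receptor that guides DCs to lymph nodes, was at 43.4 to 157 CPM in the LP group means and at 1570, 9020 and 11300 CPM in LN CD11b+, DP and CD103+ DCs. The part of these shifts in the level of Il12b was not tested.

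The chains that pair with p40 were far less abundant. Il12a (chromosome 3, 68690644 to 68698547), which encodes p35, was counted 0, 4 and 0 times in the LP CD11b+ libraries, 0, 1 and 0 times in LP DP and not at all in LP CD103+ DCs, where the 3 libraries together allow up to 0.0302 CPM. In the LN it was counted 49, 17 and 22 times in CD11b+ DCs (0.925 ± 0.499 CPM; SD, n = 3), 7, 6 and 9 times in DP DCs (0.304 ± 0.112 CPM) and 5, 20 and 13 times in CD103+ DCs (0.540 ± 0.319 CPM). Every LN library lay above every LP library, and no pair of subsets was called in the LP (adjusted p 0.12 to 0.55) or in the LN (0.13 to 0.53, edgeR). LN exceeded LP at least 17.8-fold in CD103+ DCs, when 0 counts are set to 3 counts over the group. In DP DCs the ratio was 24.7 with a 95% counting interval of 3.98 to 1020.

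For Il12a the edgeR log2 fold change was 4.18 ± 1.00 in CD11b+ DCs (adjusted p = 0.0041) and 4.23 ± 1.25 in DP DCs (adjusted p = 0.0087). In CD103+ DCs the adjusted p was 6.0e-04 with edgeR, but the gene had no count in the LP. In all 3 comparisons it was tested only because it passed the filter on low counts through the LN groups. The call in DP DCs was lost when any of its 6 libraries was left out (adjusted p 0.013 to 0.036), with total counts (0.011), with the replicate block (0.013) and without the 2 libraries that carry both Xist and Ddx3y (0.035), with 0.0061 to 0.036 over all alternatives of edgeR and DESeq2. The call in CD11b+ DCs was lost with only the libraries compared (adjusted p = 0.014 with edgeR) and without LP library 1 or 3 or LN library 1 (adjusted p 0.017 to 0.022, with 0.0011 to 0.022 over all alternatives). It was also lost without the 2 libraries that carry both Xist and Ddx3y (adjusted p = 0.013 with edgeR).

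Il23a (chromosome 10, 128296139 to 128298752), which encodes the p19 chain of IL-23, was highest in LP CD11b+ DCs. In the LP it was at 1.51, 0.403 and 4.93 CPM in CD11b+ DCs, 0.671, 0.746 and 1.32 CPM in DP DCs, and at 2 counts in all in CD103+ DCs. In the LN no group mean exceeded 0.212 CPM. LP CD11b+ DCs exceeded LP CD103+ DCs by a ratio of 119 (95% counting interval 32.7 to 993), and LP DP DCs did so by a ratio of 45.3 (12.1 to 381). Both were called with edgeR (adjusted p = 0.0015 and 0.0092), but the gene passed the filter on low counts through the LP CD11b+ and DP groups. The first call was lost without LP CD103+ library 2 (adjusted p = 0.012, with 3.3e-05 to 0.012 over all alternatives), and the second when any of the 6 libraries was left out (0.012 to 0.051, with 0.0014 to 0.051 over all alternatives). The LN against LP difference in CD11b+ DCs was -3.57 ± 1.09 on the log2 scale and missed the threshold (adjusted p = 0.016 with edgeR). It passed with DESeq2 (adjusted p = 0.006) and without LP CD11b+ library 2 (0.008), with 0.006 to 0.13 over all alternatives. In DP DCs the difference was -2.12 ± 1.09 (adjusted p = 0.10 with edgeR) and in CD103+ DCs, with 9 counts in the LN against 2 in the LP, 2.36 ± 1.65 (adjusted p = 0.23 with edgeR). Within the LN no pair of subsets was called for Il23a (adjusted p 0.74 to 0.95 with edgeR), nor was LP DP against CD11b+ (-1.32 ± 0.96, adjusted p = 0.44).

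**Figure D3:**
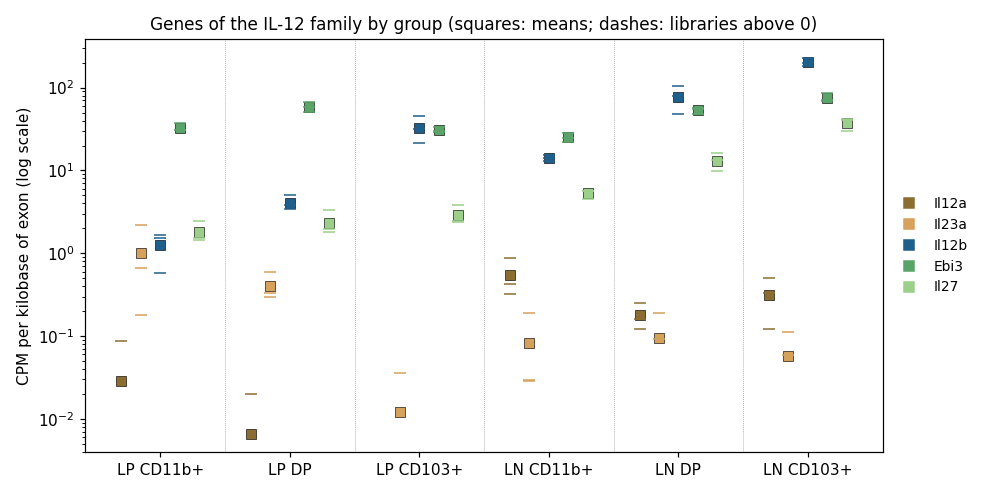
Levels of the 5 IL-12 family genes in CPM per kilobase of exon on a log axis, by group, with squares for the means and dashes for libraries above 0. In LN CD103+ DCs Il12b is highest at 204, followed by Ebi3 at 75.7 and Il27 at 37.5, while Il12a and Il23a stay below 1 in the LN of all 3 subsets.

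Per kilobase of exon, Il12b was 464 to 1510 times as abundant as Il12a in LN CD103+ libraries, 299 to 648 times in LN DP libraries and at least 14.7 times in LN CD11b+ libraries. The level of p40 transcript was thus not matched by either partner chain in any LN group. In LP CD11b+ DCs Il12b and Il23a were at similar levels, 1.25 and 1.01 CPM per kilobase, and library 2 was lowest for both.

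Il27 (chromosome 7, 126589010 to 126594941), which encodes the p28 chain of IL-27, was low throughout the LP. Its LP group means were 1.86 ± 0.58 CPM in CD11b+, 2.40 ± 0.83 CPM in DP and 2.94 ± 0.81 CPM in CD103+ DCs (SD, n = 3), and their ranges overlapped. In the LN the libraries held 4.60, 5.78 and 5.79 CPM in CD11b+, 10.1, 16.4 and 13.7 CPM in DP and 30.7, 42.7 and 41.6 CPM in CD103+ DCs. These 3 groups did not overlap each other or the LP groups. The LN excess was 2.89-fold in CD11b+ DCs (log2 fold change 1.53 ± 0.29, adjusted p = 4.6e-04), 5.58-fold in DP DCs (2.48 ± 0.29, adjusted p = 1.2e-06) and 13.1-fold in CD103+ DCs (3.71 ± 0.30, adjusted p = 1.1e-08; edgeR). The size of the excess differed between subsets (adjusted p = 9.2e-04 with edgeR). Within the LN, CD103+ DCs exceeded DP DCs 2.86-fold and CD11b+ DCs 7.10-fold (adjusted p = 5.0e-04 and 2.9e-07), and DP exceeded CD11b+ DCs 2.49-fold (adjusted p = 8.4e-04; edgeR). The excess of DP over CD11b+ DCs fell below the fold limit with total counts as library sizes (log2 fold change 0.94). No LP pair was called (adjusted p 0.088 to 0.49 with edgeR). Exons of Il27 share 103 bases with Apobr on the other strand, and reads there cannot be told apart if they were counted without strand.

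Ebi3 (chromosome 17, 55952640 to 55957022) encodes the partner of p28 and varied least of the 10 genes. Its libraries ran from 25.3 CPM in LN CD11b+ to 100.5 CPM in LN CD103+ DCs. In CD103+ DCs the libraries held 38.5, 34.8 and 33.4 CPM in the LP and 78.6, 82.8 and 100.5 CPM in the LN, a 2.46-fold rise with no overlap (log2 fold change 1.30 ± 0.13, adjusted p = 2.2e-07 with edgeR). In CD11b+ DCs the group means were 38.0 and 28.9 CPM (log2 fold change -0.39 ± 0.13, adjusted p = 0.025 with edgeR) and in DP DCs 67.8 and 61.6 CPM (-0.14 ± 0.13, adjusted p = 0.37 with edgeR), and neither was called. The tissue difference thus depended on the subset (adjusted p = 2.7e-06 with edgeR). Within the LN, Ebi3 was 3.02-fold higher in CD103+ and 2.13-fold higher in DP than in CD11b+ DCs (adjusted p = 3.1e-08 and 4.5e-06 with edgeR). The latter fell below the fold limit without LN CD11b+ library 2 (log2 fold change 0.98) and with total counts as library sizes (0.73). Within the LP, DP DCs held more Ebi3 than CD11b+ (log2 fold change 0.84 ± 0.13, adjusted p = 3.5e-04) and CD103+ DCs (0.93 ± 0.13, adjusted p = 2.6e-05; edgeR), without overlap but under the fold limit, which the second passed without LP DP library 1 (1.02). CD103+ and CD11b+ DCs of the LP were not called (-0.10 ± 0.13, adjusted p = 0.62 with edgeR), and LN DP DCs lay -0.50 ± 0.13 from LN CD103+ DCs, under the fold limit. Of the exon bases of Ebi3, 270 are shared with Gm16712 on the other strand.

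Ebi3 exceeded Il27 per kilobase in every library, and the excess was smaller in the LN. The ratio was 18.7 ± 3.13 in CD11b+, 26.2 ± 5.98 in DP and 11.3 ± 3.34 in CD103+ DCs of the LP (SD, n = 3). In the LN it was 4.80 ± 0.84, 4.17 ± 0.72 and 2.04 ± 0.29. No LN library reached the lowest LP ratio of its own subset.

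Il6 (chromosome 5, 30013114 to 30019981) was highest in LN DP DCs, at 16.9, 19.7 and 30.5 CPM. LN CD11b+ libraries held 9.13, 10.6 and 11.9 CPM and LP CD11b+ libraries 11.3, 3.77 and 12.7 CPM, which overlapped (log2 fold change 0.19 ± 0.42, adjusted p = 0.76 with edgeR). LP CD103+ libraries were lowest, at 1.20, 0.817 and 2.00 CPM. The LN excess was 4.45-fold in DP DCs (log2 fold change 2.16 ± 0.44, adjusted p = 4.3e-04) and 3.51-fold in CD103+ DCs (1.81 ± 0.46, adjusted p = 0.0025; edgeR). The latter missed the threshold without LP CD103+ library 1 or 2 or LN CD103+ library 1 or 3 (adjusted p 0.012 to 0.019, with 5.2e-05 to 0.019 over all alternatives). Whether the tissue difference varied with subset was not settled at the threshold (adjusted p = 0.027 with edgeR, 0.0035 without LP CD11b+ library 2, with 0.0035 to 0.085 over all alternatives).

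In both tissues Il6 was lower in CD103+ DCs than in DP DCs, 3.81-fold in the LP (adjusted p = 0.0033) and 4.83-fold in the LN (adjusted p = 0.0011; edgeR). The LP difference missed the threshold without LP CD103+ library 1 or 2 or LP DP library 3 (adjusted p 0.014 to 0.024, with 4.0e-05 to 0.024 over all alternatives). LP CD11b+ DCs exceeded LP CD103+ DCs 7.02-fold (log2 fold change 2.81 in their favour, adjusted p = 1.3e-04 with edgeR). In the LN the CD103+ level was 1.19 lower than the CD11b+ level on the log2 scale and was not called (adjusted p = 0.028 with edgeR). It was called with total counts (0.0044) and with the replicate block (0.0027, or 0.0058 within the LN alone), with 0.0027 to 0.11 over all alternatives. LN DP DCs lay above LN CD11b+ DCs without overlap (1.09 ± 0.42 on the log2 scale, adjusted p = 0.047 with edgeR), which was called with only the libraries compared (0.004). In the LP, DP against CD11b+ DCs gave -0.88 ± 0.43 (adjusted p = 0.21 with edgeR).

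Il10 (chromosome 1, 131019845 to 131024974) was near the limit of detection in the LP, with 26, 19 and 5 counts in all in CD11b+, DP and CD103+ DCs. In the LN it was at 4.26, 6.81 and 4.80 CPM in DP DCs, 2.78, 2.32 and 0.526 CPM in CD103+ DCs and 0.396 to 1.36 CPM in CD11b+ DCs. The DP range lay above both others. LN exceeded LP 22.8-fold in DP DCs (log2 fold change 4.51 ± 0.87, adjusted p = 2.8e-04) and 34.8-fold in CD103+ DCs (5.12 ± 1.01, adjusted p = 3.1e-04; edgeR), while in CD11b+ DCs the ranges overlapped (1.36 ± 0.82, adjusted p = 0.21 with edgeR). The gene passed the filter on low counts through the LN groups. These folds rest on 19 LP counts in DP and 5 in CD103+ DCs, so their size is imprecise.

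Within the LN, Il10 in DP DCs was not called against CD103+ DCs (log2 fold change 1.49 ± 0.73, adjusted p = 0.16 with edgeR), nor were CD103+ against CD11b+ DCs (1.32 ± 0.76, adjusted p = 0.16). It was 7.00-fold higher in DP than in CD11b+ DCs (adjusted p = 0.0073 with edgeR). This call was lost without LN CD11b+ library 1 or 3 or any one of the LN DP libraries (adjusted p 0.013 to 0.041). It was also lost with total counts (0.016 with edgeR) and without the 2 libraries that carry both Xist and Ddx3y (0.059, with 8.4e-04 to 0.059 over all alternatives). No pair of LP subsets was called (adjusted p 0.088 to 0.87 with edgeR). T cell and innate lymphoid transcripts were, like Il10, higher in the LN. The summed level of 6 innate lymphoid and NK cell markers was 2.58 to 26.7 CPM in LP and 185 to 640 CPM in LN libraries. The part of either cell type in the Il10 level was not tested.

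Il1b (chromosome 2, 129364570 to 129371139) was the most abundant of the 10 genes per kilobase of exon in the 4 groups of CD11b+ or DP DCs, with means of 184 to 763 CPM per kilobase. In the LP its level was 1456, 872 and 1521 CPM in CD11b+ DCs and 1702, 1362 and 1302 CPM in DP DCs, which overlapped (log2 fold change 0.18 ± 0.32, adjusted p = 0.80 with edgeR). In CD103+ DCs it was 38.4, 22.1 and 38.4 CPM in the LP and 38.8, 29.7 and 36.6 CPM in the LN. The CD103+ level was 39.1-fold below that of CD11b+ DCs in the LP and 16.1-fold below it in the LN (adjusted p = 1.3e-08 and 8.8e-08 with edgeR). It was 44.3-fold and 10.0-fold below that of DP DCs (adjusted p = 9.6e-09 and 3.2e-06 with edgeR). All 12 libraries of CD11b+ and DP DCs lay above all 6 of CD103+ DCs.

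Across tissues Il1b fell by 2.05 on the log2 scale in DP DCs (SE 0.33, 4.15-fold, adjusted p = 4.7e-05 with edgeR), to 289, 309 and 456 CPM in the LN, with no overlap. In CD11b+ DCs the LN libraries held 392, 363 and 932 CPM, and library 3 fell within the range of the LP. There it fell by 1.19 on the log2 scale (SE 0.32, adjusted p = 0.0077 with edgeR). That call was lost without LP CD11b+ library 1 or 3 or LN CD11b+ library 1 or 2 (adjusted p 0.028 to 0.045). It was also lost with total counts and with only the libraries compared (0.012 and 0.042 with edgeR), with 1.2e-04 to 0.045 over all alternatives. In CD103+ DCs the difference was 0.09 ± 0.33 (adjusted p = 0.82 with edgeR). The tissue difference varied with subset (adjusted p = 0.004 with edgeR), and this call was lost without any one of 6 libraries, LP CD103+ 2, LP DP 1, LN CD103+ 1 or 3 and LN DP 1 or 2 (0.010 to 0.013, with 1.3e-04 to 0.013 over all alternatives). The summed level of the 6 cDC2 markers was also lower in the LN in these subsets. It was 2240 to 3349 CPM in LP and 800 to 1220 CPM in LN CD11b+ DCs, and 2565 to 3080 and 228 to 266 CPM in DP DCs. In CD11b+ DCs the list was split. Cd209a was at 2060 CPM in LP and 241 CPM in LN, whereas Sirpa was at 519 and 696 CPM and Klf4 at 56.4 and 52.9 CPM. The part of these shifts in the level of Il1b was not tested. Within the LN, DP against CD11b+ DCs was not called (-0.68 ± 0.32, adjusted p = 0.098 with edgeR). Il1b shares 25 exon bases with Il1bos on the other strand.

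**Figure D4:**
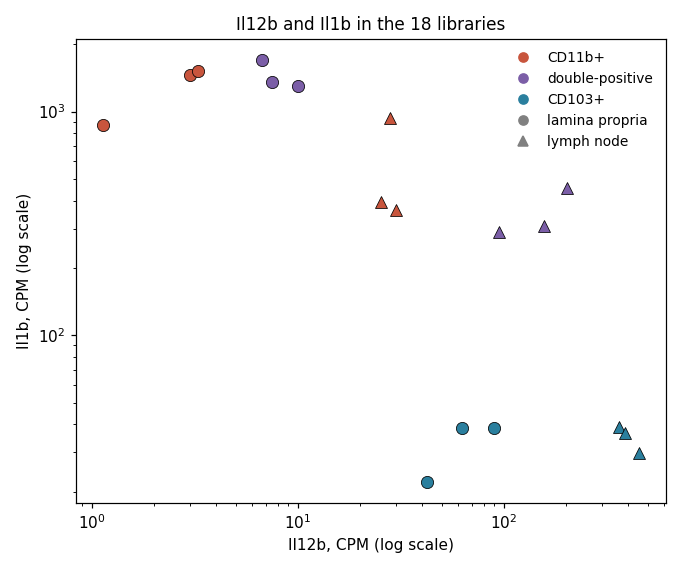
Level of Il1b (y axis) against Il12b (x axis) in CPM, both on log axes, with 1 symbol per library, circles for LP and triangles for LN, and colours for the subsets. The 6 CD103+ libraries lie at Il1b levels of 22.1 to 38.8 CPM in both tissues, while their Il12b levels are 42.3 to 89.7 CPM in the LP and 362 to 453 CPM in the LN.

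Il18 (chromosome 9, 50554827 to 50581840), the other inflammasome substrate, shared the low level in CD103+ DCs. The libraries held 3.96, 2.39 and 2.53 CPM in LP CD103+ and 3.69, 3.84 and 6.22 CPM in LN CD103+ DCs. Between 14.8 and 37.1 CPM were found in every library of the other 4 groups. The deficit of CD103+ DCs was 6.09-fold against CD11b+ and 9.13-fold against DP DCs in the LP (adjusted p = 6.7e-08 and 8.3e-09 with edgeR). In the LN it was 6.67-fold and 3.25-fold (adjusted p = 1.8e-08 and 1.9e-05 with edgeR). The tissue difference changed sign between subsets, at 0.77 ± 0.20 on the log2 scale in CD11b+ DCs and -0.86 ± 0.20 in DP DCs (adjusted p = 0.0063 and 0.0016 with edgeR). In CD103+ DCs it was 0.64 ± 0.22 (adjusted p = 0.018 with edgeR). The first and second are under the fold limit, although total counts took the DP value past it (-1.03), and the test between subsets gave an adjusted p of 3.1e-04. DP DCs were not called against CD11b+ DCs in the LP (adjusted p = 0.066 with edgeR) and were 2.05-fold below them in the LN (adjusted p = 5.1e-04 with edgeR). The latter fell below the fold limit without LN CD11b+ library 1 (-0.90 on the log2 scale).

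Il1rn (chromosome 2, 24336853 to 24351494) encodes the IL-1 receptor antagonist. In the LP it was at 141, 97.3 and 259 CPM in CD11b+ DCs, 18.8, 22.7 and 19.0 CPM in DP DCs and 1.49, 1.42 and 0.734 CPM in CD103+ DCs. The 3 LP groups did not overlap. DP DCs exceeded CD103+ DCs 16.1-fold (adjusted p = 4.3e-07 with edgeR), and CD11b+ DCs exceeded DP DCs 8.21-fold (adjusted p = 1.1e-05 with edgeR) and CD103+ DCs 132-fold (adjusted p = 1.1e-09 with edgeR). In the LN the levels were 67.1, 46.5 and 104 CPM, 43.7, 41.2 and 45.8 CPM, and 4.27, 2.74 and 3.99 CPM in the same order. Both CD11b+ and DP DCs of the LN exceeded CD103+ DCs, 19.8-fold and 11.9-fold (adjusted p = 3.9e-08 and 1.8e-06 with edgeR). LN CD11b+ and DP DCs differed by 1.67-fold, which was not called (adjusted p = 0.06 with edgeR, past the threshold with total counts at 0.006, with 0.006 to 0.39 over all alternatives).

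Between tissues Il1rn moved in opposite directions. It fell by 1.19 on the log2 scale in CD11b+ DCs (SE 0.30, adjusted p = 0.0052) and rose by 1.11 in DP DCs (SE 0.31, adjusted p = 0.0055) and by 1.55 in CD103+ DCs (SE 0.42, adjusted p = 0.0041; edgeR). The test between subsets gave an adjusted p of 3.0e-04 with edgeR. The call in CD11b+ DCs was lost without LP library 3 or LN library 1 or 2 (0.022 to 0.048, with 3.8e-04 to 0.048 over all alternatives). It was also lost with only the libraries compared (0.046 with edgeR). The call in DP DCs was lost without any one of its 6 libraries (0.011 to 0.022, with 2.6e-05 to 0.022 over all alternatives). With total counts it was lost too (log2 fold change 0.94, adjusted p = 0.014 with edgeR). The call in CD103+ DCs was lost without LP library 2 or 3 or LN library 1 or 3 (0.011 to 0.022, with 8.2e-06 to 0.022 over all alternatives). No direction changed in any of these.

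Il1b and Il1rn therefore did not keep a fixed proportion. Per kilobase of exon Il1b exceeded Il1rn 24.4 ± 6.63 times in LP CD11b+, 90.6 ± 54.9 times in LP CD103+ and 212 ± 46.0 times in LP DP DCs (SD, n = 3), and these ranges did not overlap. In the LN the ratio was 21.9 ± 4.55, 28.1 ± 2.82 and 23.3 ± 5.01 in the same order. There the DP range overlapped both others, while CD11b+ (17.0 to 26.0) and CD103+ (26.4 to 31.4) did not overlap each other. The exon length of Il1rn, 5.54 kilobases, joins alternative starts, which lowers its level per kilobase. The effect is alike in all groups only if they use the starts alike, which was not measured.

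Markers of macrophages and monocytes moved with these genes in part. The 10 markers summed to 1474 to 2217 CPM in LP CD11b+, 1176 to 1247 CPM in LP DP and 597 to 689 CPM in LP CD103+ libraries. In the LN they summed to 568 to 879 CPM in CD11b+, 226 to 234 CPM in DP and 72.9 to 85.0 CPM in CD103+ libraries. In LP CD103+ DCs Cd68 made up most of the sum, at 595 CPM of a mean of 644 CPM. Every other marker of the list was at 24.7 CPM or less there. Between LP CD11b+ and LP DP DCs, where Il1rn differed and Il1b was not called, the list was split. C1qa, C1qb and C1qc were at 196, 348 and 240 CPM in CD11b+ and 19.9, 38.8 and 27.8 CPM in DP DCs, whereas Adgre1 was at 95.4 and 196 CPM and Cd68 at 763 and 868 CPM. Of the 6 neutrophil markers, S100a8 and S100a9 were at 3.30 CPM or less in every group mean and Csf3r reached 40.3 CPM in LP CD11b+ DCs. The part of macrophages in the level of Il1rn was not tested.

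Across the 18 libraries, on log2 CPM, Il1b was correlated with Il18 (Pearson r = 0.91) and with Il1rn (r = 0.86), and Il12b with Il27 (r = 0.88) and inversely with Il1b (r = -0.76). These describe libraries that share tissue and subset, and carry no test. Among 9594 other genes, the one most like Il12b was Hc, complement C5 (r = 0.99), followed by Mab21l3 and Prpf38b. Il1b was most like Cyp4f18, Bcas1 and Cybb, a subunit of the phagocyte NADPH oxidase (r = 0.98, 0.98 and 0.97). Il18 was most like Foxn3 (r = 0.98) and Sirpa, a marker of the cDC2 lineage (r = 0.97). Il1rn was most like Adgre4 (r = 0.96), Il27 like Sirt1 (r = 0.98) and Ebi3 like Mvd and Fdft1, enzymes of sterol synthesis (r = 0.96 and 0.96). For the remaining members the nearest genes were Pim2 for Il12a (r = 0.93), Nfe2l2 for Il23a (r = 0.86), Pmaip1 for Il6 (r = 0.92) and Specc1l for Il10 (r = 0.94).

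Of 59 genes listed for the receptors, signalling and processing of these cytokines, 58 were in the table and 54 were tested. LN against LP called 16 of them in CD11b+ DCs (10 higher and 6 lower), against 15.2% of all genes tested. It called 32 in CD103+ DCs (27 and 5), against 35.0%, and 39 in DP DCs (27 and 12), against 32.1%. The same shares stand behind the counts of each list that follow. Of the 6 receptor chains for the IL-12 family and IL-6, 4 were higher in the LN in all 3 subsets. These were Il12rb1 and Il12rb2, the IL-12 receptor chains, Il23r and Il27ra. Il12rb1 rose by 4.00, 3.58 and 3.50 and Il12rb2 by 3.283, 2.597 and 3.821 on the log2 scale in CD11b+, CD103+ and DP DCs. The IL-6 receptor chain Il6ra was called lower (-1.02) and its signalling partner Il6st higher (1.18) in DP DCs. Il23r rose from 1.01 to 21.5 CPM in CD11b+, from 0.0734 to 8.19 CPM in DP and from 0.0236 to 5.34 CPM in CD103+ DCs, and Il27ra from 9.15 to 74.5, 4.06 to 47.4 and 2.01 to 40.6 CPM. T cells and innate lymphoid cells express these receptors, and their markers rose in the same libraries (T cells from 4.39 to 27.0 CPM in the LP to 242 to 536 CPM in the LN, summed over 8 genes). Ncr1, an NK and innate lymphoid receptor, was at 88.7 CPM in LN CD11b+ DCs and at 0.317 CPM in LP CD11b+ DCs. The part of such cells in the receptor levels was not tested.

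**Figure D5:**
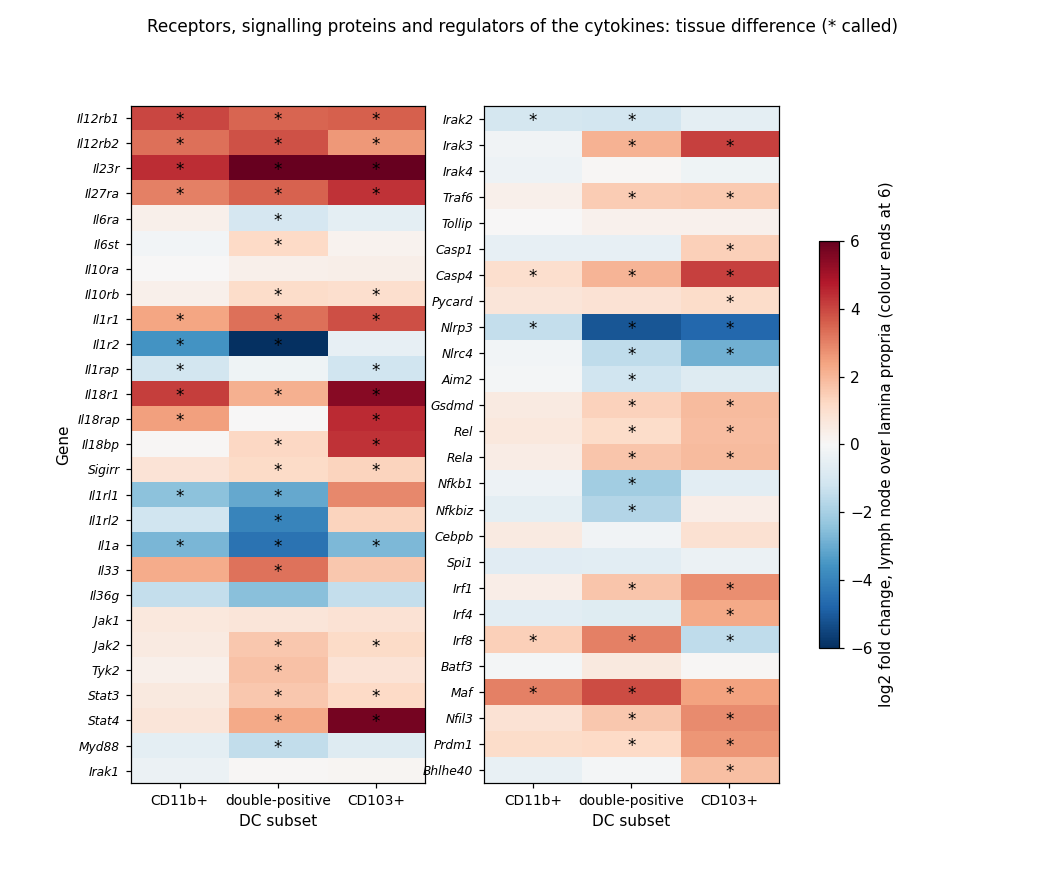
Colours give the log2 fold change of LN over LP for tested genes of the receptors, signalling and processing lists (rows) in each subset (columns), and stars mark called genes. Il12rb1, Il12rb2, Il23r and Il27ra are red and starred in all 3 columns, and Il1a and Nlrp3 are blue and starred in all 3.

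Of 9 receptors, decoys and inhibitors of the IL-1 family, 6 were called in CD11b+ DCs (3 higher and 3 lower), 6 in CD103+ DCs (5 and 1) and 7 in DP DCs (4 and 3). Il1r2, the decoy receptor for IL-1, fell like Il1b from LP to LN in CD11b+ and DP DCs. It was at 445 CPM in LP DP and 5.81 CPM in LN DP DCs (log2 fold change -6.26 ± 0.24, adjusted p = 2.5e-12 with edgeR), and at 175 and 14.8 CPM in CD11b+ DCs (-3.56 ± 0.20, adjusted p = 1.8e-09 with edgeR). Il1r1, the signalling receptor, was higher in the LN in all 3 subsets, at 20.0 CPM in CD11b+ DCs and 7.31 CPM or less in the others. Il18bp, which neutralises IL-18, rose from 1.09 to 22.4 CPM in CD103+ DCs (log2 fold change 4.34 ± 0.35, adjusted p = 1.1e-08 with edgeR). The IL-18 receptor chain Il18r1 rose by 4.15, 5.46 and 2.11 on the log2 scale in CD11b+, CD103+ and DP DCs, and its partner Il18rap by 2.459 and 4.497 in CD11b+ and CD103+ DCs. In LP CD103+ DCs the 2 were at only 0.0608 and 0.118 CPM, so the size of their folds there is imprecise. Both were highest in LN CD11b+ DCs, at 29.8 and 36.0 CPM, where Ncr1 was at 88.7 CPM. The part of other cell types in these levels was not tested. Il1rap, the shared accessory chain, fell by 1.10 and 1.21 in CD11b+ and CD103+ DCs. The IL-33 receptor Il1rl1 fell by 2.47 in CD11b+ and 3.05 in DP DCs, and the IL-36 receptor Il1rl2 fell by 3.97 in DP DCs. Sigirr, an inhibitory receptor, rose by 1.32 in CD103+ and 1.16 in DP DCs. The IL-10 receptor chain Il10rb was called in CD103+ and DP DCs, by 1.00 and 1.10 on the log2 scale, and Il10ra was not. Of 8 other IL-1 family ligands 3 were tested. Il1a, the other IL-1 agonist, fell in all 3 subsets, from 50.4 to 2.38 CPM in DP, 25.3 to 3.75 CPM in CD11b+ and 2.15 to 0.330 CPM in CD103+ DCs. Il33 rose by 3.25 on the log2 scale in DP DCs, from 0.082 to 0.83 CPM, and so stayed low in both tissues.

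Of 7 genes for the cleavage and release of IL-1 beta and IL-18, 2 were called in CD11b+ DCs (1 higher and 1 lower), 6 in CD103+ DCs (4 and 2) and 5 in DP DCs (2 and 3). Nlrp3, the sensor of the inflammasome, was lower in the LN in all 3 subsets, from 68.3 to 1.91 CPM in DP (log2 fold change -5.14 ± 0.35, adjusted p = 2.1e-09), 41.1 to 15.4 CPM in CD11b+ (-1.41 ± 0.29, adjusted p = 0.001) and 9.40 to 0.350 CPM in CD103+ DCs (-4.72 ± 0.41, adjusted p = 3.4e-08; edgeR). Casp4 moved the other way in all 3, reaching 52.8 CPM in LN CD103+ DCs from 3.08 CPM in the LP. Gsdmd, the pore-forming protein, rose by 1.897 on the log2 scale in CD103+ and 1.404 in DP DCs, and the adaptor Pycard by 1.10 in CD103+ DCs. The sensor Nlrc4 fell by 2.86 in CD103+ and 1.51 in DP DCs, and Aim2 fell by 1.21 in DP DCs. Casp1, which cuts both precursors, rose from 29.1 to 79.0 CPM in CD103+ DCs (log2 fold change 1.44 ± 0.10, adjusted p = 2.4e-09 with edgeR). Its values in CD11b+ and DP DCs were -0.51 and -0.48, under the fold limit, and the tissue difference varied with subset (adjusted p = 1.5e-08 with edgeR).

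Of 7 genes of the adaptor and kinases of the IL-1 receptor, 1 was called in CD11b+, 2 in CD103+ and 4 in DP DCs. Irak2 was lower in the LN in CD11b+ and DP DCs (59.0 against 122 CPM, and 53.5 against 114 CPM). Irak3, an inhibitory family member, rose by 4.09 on the log2 scale in CD103+ DCs (0.207 to 4.23 CPM) and 2.08 in DP DCs (1.83 to 7.77 CPM). Traf6 was called higher in both subsets (1.58 in CD103+ DCs). Myd88, the shared adaptor, was lower in DP DCs, at 87.6 against 243 CPM, and its log2 fold changes of -0.60 and -0.75 in CD11b+ and CD103+ DCs were under the fold limit. Among kinases and transcription factors downstream of these receptors, Jak2 rose by 1.14 and 1.61 and Stat3 by 1.19 and 1.62 on the log2 scale in CD103+ and DP DCs, and Tyk2 rose by 1.77 in DP DCs. Stat4, which transmits the IL-12 signal, was at 151 CPM in LN and 2.82 CPM in LP CD103+ DCs (log2 fold change 5.75 ± 0.23, adjusted p = 2.4e-12 with edgeR).

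Of 14 transcription factors of cytokine genes, 2 were called in CD11b+ DCs, 9 in CD103+ DCs (8 higher and 1 lower) and 9 in DP DCs (7 and 2). Irf8, the factor of the cDC1 lineage, was, like Il12b, highest among LP groups in CD103+ DCs (4650 CPM), but moved against Il12b between tissues there, falling to 1615 CPM in the LN (log2 fold change -1.53 ± 0.09, adjusted p = 2.6e-10 with edgeR). In DP DCs it rose from 83.6 to 689 CPM and in CD11b+ DCs from 151 to 405 CPM (adjusted p = 6.0e-13 and 5.1e-09 with edgeR). Rel and Rela, NF-kB subunits, rose in CD103+ and DP DCs, with Rela from 142 to 526 and from 155 to 499 CPM. Nfkb1 fell in DP DCs, from 263 to 62.2 CPM, as did Nfkbiz, by 1.74 on the log2 scale. Irf1 rose by 2.80 and 1.68, Nfil3 by 2.84 and 1.64 and Prdm1 by 2.64 and 1.22 in CD103+ and DP DCs, while Irf4 and Bhlhe40 rose by 2.27 and 1.79 in CD103+ DCs. Maf, a factor known to drive Il10, was higher in the LN in all 3 subsets, by 3.002, 2.402 and 3.917 on the log2 scale in CD11b+, CD103+ and DP DCs. Within the LN its order differed from that of Il10. Maf was at 19.4, 10.1 and 4.99 CPM in LN CD11b+, DP and CD103+ DCs, and Il10 at 0.753, 5.29 and 1.88 CPM. The part of Maf in the Il10 level was not tested.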

How the data were processed

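RNA-seq of 18 DC libraries was analysed from the raw counts per gene that the authors deposited. The labels name STAR 2.6, FastQC 0.11.7 and GRCm38. The protocol in the labels names a Smart-seq v4 kit, but describes DCs of lamina propria and lymph, not of lymph node. The study's methods give unstranded counts of unique alignments for its DC libraries, and it is not stated whether the 18 libraries here are among them, so strand and counting are uncertain for these files. Identifiers were matched to symbols for 54079 of 54232 genes.

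Counts were scaled by TMM, filtered with filterByExpr (17074 genes left) and tested in edgeR 4.0.16 (R 4.3.3) with 1 quasi-likelihood fit of 6 group means. Calls needed an adjusted p under 0.01 (Benjamini-Hochberg) and a fold change over 2, the study's limits. The test between subsets was an F test with no fold limit. SE values come from the F statistic, 95% intervals of count ratios cover counting error only, and 0 counts were set to 3 counts over a group. The script was tested on simulated counts. Replicates differed by a chi-square per gene of at least 14.9, so none was counted as a duplicate.

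Members and lists were chosen with earlier results of these data known. All 10 members were described in every comparison. Genes of the receptor, signalling and processing lists were named where a tissue comparison called them or where they are a receptor, partner or protease of a member, and the nearest genes by Pearson's r on log2 CPM (prior count 2) were ranked among genes reaching 10 CPM in a group mean. A listed gene is not reported here. The marker lists were for 13 cell types or states. Of these, B cell, plasma cell, mast cell, plasmacytoid DC and epithelial markers summed to at most 225, 1812, 79.8, 341 and 343 CPM in any library. The 6 conventional DC markers summed to at least 22260 CPM, and the 6 cDC2 markers to 2240 CPM or more in LP CD11b+ and DP DCs, 800 to 1220 CPM in LN CD11b+, 228 to 266 CPM in LN DP and 59.8 CPM or less in CD103+ DCs.

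The labels number libraries alike in each group. Same-numbered libraries deviated together (every r over 0.1) for LP CD103+ with CD11b+ DCs (0.152 to 0.208) and LP DP with CD103+ DCs (0.125 to 0.189), from the data alone. No other comparison reached this limit. LP DP with CD11b+ DCs came near it, at 0.212, 0.075 and 0.25, beside -0.269 to 0.088 for unlike numbers, so a pairing there is not excluded. Alternatives were other scalings, filters and thresholds, DESeq2 1.42.0, only the libraries compared, the replicate block and each library left out.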

Additional observations from a re-analysis of the deposited data

Results flagged for a closer look

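The tissue difference of 5 genes, lymph node against lamina propria, differed between the 3 DC subsets by edgeR's quasi-likelihood F test with Benjamini-Hochberg adjustment over all genes. For Ebi3 the adjusted p was 2.7e-06, with a rise in CD103+ DCs (log2 fold change 1.30) beside -0.39 and -0.14 in CD11b+ and double-positive DCs. For Il27 it was 9.2e-04, with rises of 1.53, 2.48 and 3.71 in CD11b+, double-positive and CD103+ DCs. For Il18 it was 3.1e-04, with 0.77 in CD11b+ and -0.86 in double-positive DCs. For Il1rn it was 3.0e-04, with a fall of 1.19 in CD11b+ DCs and rises of 1.11 and 1.55 in double-positive and CD103+ DCs. For Il1b it was 0.004, with falls of 1.19 and 2.05 in CD11b+ and double-positive DCs beside 0.09 in CD103+ DCs. The Il1b call was lost without any one of 6 libraries (adjusted p 0.010 to 0.013 by the same test). Its fall in CD11b+ DCs was also not called in some alternatives.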

How the results depend on the processing

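Of 1589 values of the 10 genes under alternatives, 1474 kept their direction and their side of the threshold, 72 lost a call, 23 gained one and 20 changed direction. In CD11b+ DCs the tissue calls fell from 5 to 2 with only the libraries compared and were 2 to 6 with a library left out. In DP DCs they fell from 7 to 5 whichever of the libraries compared was left out, and in CD103+ DCs they were 5 to 7. LP DP against CD11b+ fell from 2 to 1 with only the libraries compared and was 1 to 2 with a library left out, and its listed pathway genes fell from 10 to 4 (4 to 10 with a library left out). Over all genes that comparison called 821, and 1289 at an adjusted p under 0.05 or 506 with only the libraries compared. LN DP against CD11b+ fell from 5 to 3 with total counts (3 to 4 with a library left out). Pathway genes in LN DP against CD103+ were 11, 7 to 10 with a library left out, and 7 without the 2 libraries carrying Xist and Ddx3y, an alternative chosen after seeing the data. The test between subsets called 5 genes, and 8 at an adjusted p under 0.05 (4 to 7 with a library left out). Values that changed direction were in comparisons without a call. With a library left out, Il6 between tissues in CD11b+ DCs was -0.186 to 0.484 and Il1b between tissues in CD103+ DCs -0.153 to 0.219. In LP CD103+ against CD11b+, Il12a was -4.12 to 0.0 and Ebi3 -0.155 to 0.0115. In LP DP against CD11b+, Il12a was -3.54 to 1.88, Il10 -1.45 to 0.638 and Il1b -0.0324 to 0.321. Il23a was -1.5 to 0.873 in LN CD103+ against CD11b+, -0.793 to 1.56 in LN DP against CD11b+ and -0.229 to 1.62 in LN DP against CD103+. With total counts they were Il1b between tissues in CD103+ DCs (-0.14) and Il23a in LN DP against CD11b+ (-0.24). Il23a in LN DP against CD11b+ was -1.17 without the 2 libraries with both transcripts and -0.17 with the replicate block, and in LN DP against CD103+ -0.23 without those libraries. The cause was not tested. With the block, members called stayed at 6 in both LP comparisons where every r of same-numbered libraries was over 0.1. They were at 5 to 7 in the tissue comparisons (5, 7 and 6). There it lost Il12a in DP DCs, and in LN CD103+ against CD11b+ it added Il6 (7 called), as it did in the test between subsets (6 called). Total counts moved the median over all genes from -0.13 to -0.56 in LN CD103+ against CD11b+ and from -0.08 to -0.44 in LN DP against CD11b+, so a log2 difference there depends on the scaling. Il12a, Il23a and Il10 had at most 209 counts over the 3 libraries of a group, except Il10 in LN DP DCs with 405, which limits their precision. DESeq2 and other filters moved no count of members by over 1.5 times. The stricter filter left out Il12a and Il23a and gave no value for them.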
